A study of Mus musculus with 59 samples.

Results

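Mammary tumors at the top and the bottom of a ranking by milk protein RNA were compared. The ranking used a score for each of 59 tumors, the mean of log2(normalized count + 1) over 4 genes, Csn2, Csn3, Csn1s1 and Wap. The 15 tumors with the highest score are called milk-protein-high and the 15 with the lowest milk-protein-low, and 29 tumors lay between them. All tumors came from B6.FVB-Tg(MMTV-PyVT)634Mul/LellJ mice that carried the transgene, PyMT (+/-), in which the mouse mammary tumor virus promoter drives the polyoma middle T oncogene in mammary epithelium. The mice had received methylparaben (n = 20), propylparaben (n = 20) or vehicle (n = 19) in a study of chronic low-level exposure to these preservatives. Total RNA came from a flash-frozen piece of each tumor, and a library held 1166502 to 2032789 reads on genes. The labels give no dose, age or reproductive state and do not state that tumors came from separate animals, so a p-value here reflects only how these samples vary. No genotype or treatment other than these separates the classes, and each class holds tumors of all 3 treatment groups.

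Milk proteins are made by the alveolar cells of the mammary gland. Csn1s1, Csn2 and Csn3 encode alpha-S1, beta- and kappa-casein, and kappa-casein coats and stabilizes the casein micelle. Wap encodes whey acidic protein, the main whey protein of mouse milk. Prolactin binds its receptor Prlr, the kinase Jak2 phosphorylates Stat5a and Stat5b, and these factors bind TTC-and-GAA motifs near milk protein genes. Another luminal cell type, the hormone-sensing cell, carries the estrogen and progesterone receptors and signals to its neighbors, and mature alveolar cells carry little of these receptors.

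The promoters of the 3 score genes that differed between the classes are shown because the values below separate them, with the 250 bases before the start site from RefSeq (GRCm38.p6), 5′ to 3′ on the strand of the gene. Capitals mark TTCNNNGAA, the core motif that STAT factors bind, searched on both strands, which read alike.
Csn1s1: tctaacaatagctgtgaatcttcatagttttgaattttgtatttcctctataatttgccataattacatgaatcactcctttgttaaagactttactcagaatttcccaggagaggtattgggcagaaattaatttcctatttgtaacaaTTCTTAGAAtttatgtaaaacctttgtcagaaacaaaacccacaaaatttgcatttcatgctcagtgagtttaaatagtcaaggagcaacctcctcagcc
Csn2: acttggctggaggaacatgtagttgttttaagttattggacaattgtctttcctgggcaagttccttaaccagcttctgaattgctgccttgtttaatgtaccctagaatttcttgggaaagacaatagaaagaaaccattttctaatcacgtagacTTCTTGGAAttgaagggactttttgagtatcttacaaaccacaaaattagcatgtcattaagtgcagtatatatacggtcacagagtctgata
Wap: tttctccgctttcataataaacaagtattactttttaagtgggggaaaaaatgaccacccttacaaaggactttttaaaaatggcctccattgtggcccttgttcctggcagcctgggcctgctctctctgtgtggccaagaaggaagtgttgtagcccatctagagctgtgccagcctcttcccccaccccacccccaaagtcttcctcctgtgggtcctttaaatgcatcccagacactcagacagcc
Csn1s1 lies on the plus strand and its window is chr5:87665958-87666207. Csn2 lies on the minus strand of the same casein cluster, at chr5:87699426-87699675. Wap lies on the minus strand at chr11:6638650-6638899. The motif was at -100 in the Csn1s1 window and at -93 in the Csn2 window, and the Wap window held none. It was present in 2306 of 32851 windows of the same length (7.02%). The table had windows for 15 of 19 milk protein genes, and Csn3 was not among these. Among the other milk protein windows the motif was found in that of Glycam1 alone, at -145. Glycam1 did not pass the test between the classes (log2 difference 0.08, limma adjusted p = 0.947), so the motif does not separate the score genes from the other milk protein genes.

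The ranking was carried by Csn1s1 first and then by Csn2 and Wap, while Csn3 hardly entered it. The classes were chosen by the levels of these 4 genes, so the values are a description with no test. The score ran from 5.61 to 7.04 (median 6.16) in milk-protein-high tumors and from 3.64 to 4.59 (median 4.33) in milk-protein-low tumors. At the upper limit, propylparaben replicate 2 was the last tumor inside, with 5.61, and vehicle replicate 16 the first outside, with 5.58. At the lower limit, methylparaben replicate 11 was the last tumor inside, with 4.59, and methylparaben replicate 8 the first outside, with 4.62. The limits thus cut a continuous range.

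Csn1s1 levels were 31.0, 134.6 and 4383 normalized counts (lowest, median and highest) in milk-protein-high tumors and 3.83, 11.2 and 22.6 in milk-protein-low tumors. The classes did not overlap for it, and vehicle replicate 4 held the 4383. Csn1s1 gave 49.2% of the difference in score. Csn2 levels were 0, 3.79 and 43.4 in milk-protein-high tumors and 0, 0 and 1.82 in milk-protein-low tumors. Beta-casein RNA was scarce even in the high class, with a median of 10 reads there. No Csn2 read was found in 1 of 15 high and in 9 of 15 low tumors, and a count of 0 allows up to 3 reads, a level of 0.969 to 1.61 in those libraries, for counting error only. Csn2 gave 29.9% of the difference in score.

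Wap levels were 3.47, 9.57 and 156 in milk-protein-high tumors and 0.475, 2.88 and 6.11 in milk-protein-low tumors. The classes overlapped, and the 156 was in methylparaben replicate 18, the high tumor without a Csn2 read. Wap gave 21.4% of the difference. Csn3 levels were 492, 2758 and 3314 in milk-protein-high tumors and 1382, 2481 and 2889 in milk-protein-low tumors. Its classes overlapped over most of their range. The median level over the 59 tumors was 2572 for Csn3, 34.6 for Csn1s1, 4.31 for Wap and 0.824 for Csn2. All annotated exons of a gene joined span 4152, 6247, 1008 and 6926 bases in the same order, which need not be the length of its main transcript. Per kilobase of that span, the medians were 619 for Csn3, 5.54 for Csn1s1, 4.27 for Wap and 0.119 for Csn2. By both measures kappa-casein was by far the most abundant of the 4. Its mean log2 level was 11.15 ± 0.76 in milk-protein-high tumors and 11.18 ± 0.29 in milk-protein-low tumors (SD, n = 15 each). Its share of the difference was -0.46%. The name milk-protein-high therefore holds for alpha-S1-casein, beta-casein and whey acidic protein, and not for kappa-casein.

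**Figure D1:**
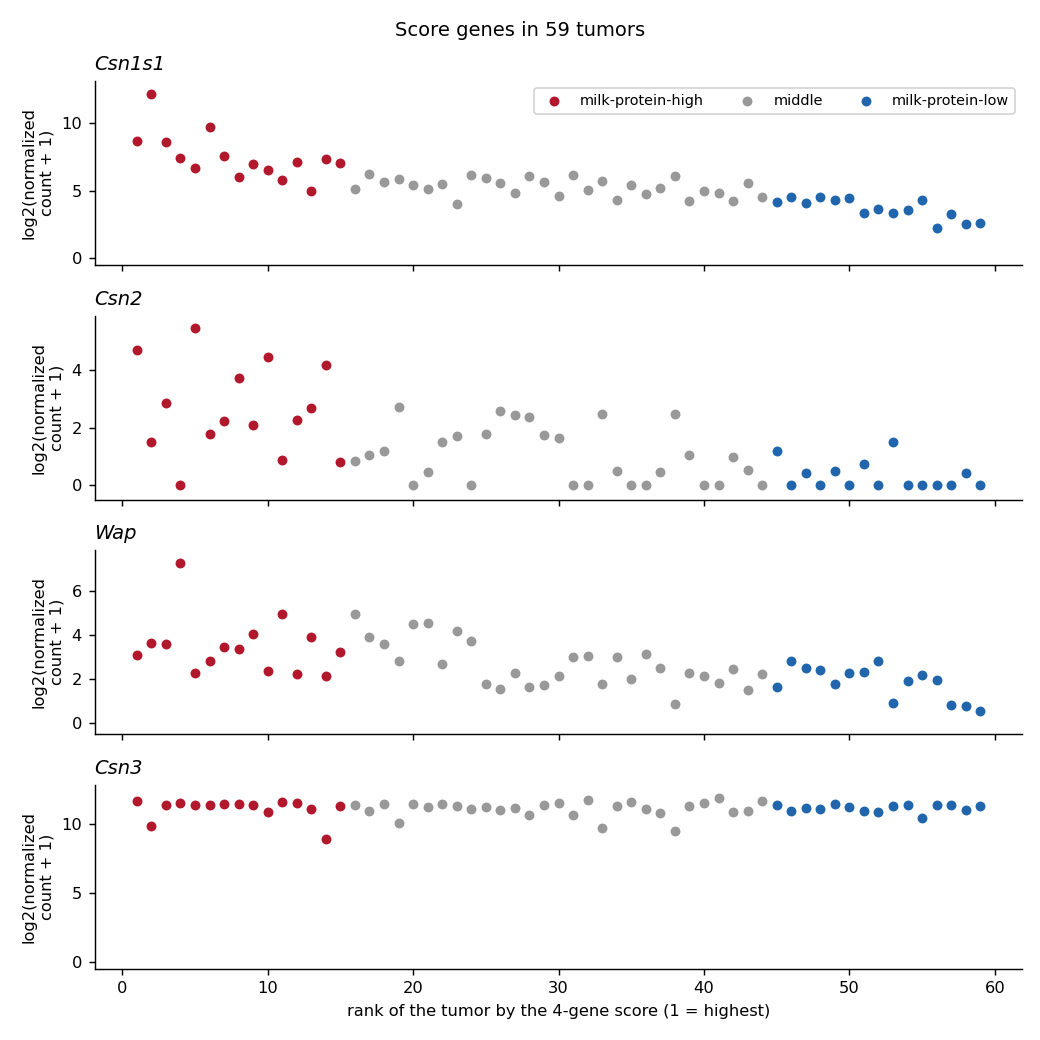
Levels of the 4 score genes in 59 tumors, as log2(normalized count + 1), against the rank of the tumor by score (1 is highest); red points are milk-protein-high, grey middle and blue milk-protein-low tumors. Csn1s1 falls along the ranking without overlap between the end classes, Csn2 and Wap overlap, and Csn3 stays level.

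A tumor high in 1 milk protein was often not high in another. Of the 15 milk-protein-high tumors, 12 were also among the 15 highest by Csn1s1 alone, 9 by Csn2, 8 by Wap and 6 by Csn3. Of the 15 milk-protein-low tumors, 12 were among the 15 lowest by Csn1s1 alone, 8 by Csn2, 7 by Wap and 4 by Csn3. Each gene is itself part of the score, which raises these counts. Over 59 tumors the Pearson correlation with the mean of the other 3 was 0.56 for Csn1s1 and 0.26 for Csn2. It was 0.29 for Wap and -0.16 for Csn3. Propylparaben replicate 7 had the highest Csn2 level (43.4) with a Csn1s1 level of 100.4. Vehicle replicate 4, with the highest Csn1s1, had a Csn2 level of 1.87 and a Csn3 level of 921. A score without Csn1s1 kept 11 of the high and 10 of the low tumors, and a score without Csn3 kept 14 and 13.

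The score did not differ detectably between treatment groups. It averaged 5.05 ± 0.68 in methylparaben (n = 20) and 5.24 ± 0.71 in vehicle tumors (n = 19), with a difference of -0.18 (two-sided permutation test, adjusted p = 0.815 over 3 comparisons). It averaged 5.12 ± 0.96 in propylparaben tumors (n = 20), -0.12 from vehicle and 0.06 from methylparaben, and the adjusted p was 0.815 in each case. The high class held 3 methylparaben, 7 propylparaben and 5 vehicle tumors, and the low class 6, 7 and 2 (permutation test of class by treatment, p = 0.416). Treatment was a covariate in the fits below. Of 7 library measures, the share of reads aligned to several places had the smallest p, at 13.2% ± 1.18 in milk-protein-high and 12.2% ± 0.665 in milk-protein-low tumors (SD, n = 15 each; permutation p = 0.00858, adjusted p = 0.0601). Reads on genes, mitochondrial reads and the intronic share had adjusted p of 0.945. The part of these measures in the results was not tested.

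Of 14483 other genes tested, 415 passed an adjusted p of 0.05 (2.87%), of which 200 were higher (1.38%) and 215 lower (1.48%) in milk-protein-high tumors (limma with Benjamini-Hochberg adjustment). Their log2 differences were 0.19 to 1.97 upward and 0.18 to 2.19 downward in size. Outside the score, no gene had classes that did not overlap. Classes from a score without Csn1s1 gave 3 higher and 3 lower genes, and from a score without Csn2 6 and 2. Fits that left out 1 tumor kept the classes fixed. In those fits the counts moved by over 1.5 times with each of 12 tumors left out. They were 13 higher and 9 lower without vehicle replicate 11, 43 and 29 without methylparaben replicate 20, 65 and 49 without propylparaben replicate 1, and 75 and 44 without vehicle replicate 9. They were 101 to 136 higher and 99 to 140 lower without propylparaben replicate 2, 6, 8, 10, 14 or 20, and 408 and 451 or 466 and 602 without propylparaben replicate 5 or 12. Vehicle replicates 9 and 11 are the 2 vehicle tumors of the low class. The sign of principal component 1 was set so that its low end was the end with higher mitosis RNA. A further fit left out the 7 libraries at that low end, called the 7 low-end libraries. The last of them was at -36.3 and the next library at -31.8, so the cut met no clear gap. At the other end methylparaben replicate 5, a low-class tumor at 56.3, was kept. The 7 are vehicle replicates 7, 8, 10, 13, 14 and 19 and propylparaben replicate 1. Of these 3 are in the high and 0 in the low class. Without them 53 genes were higher and 36 lower. Within a single treatment group 0 genes passed, with 531 and 563 higher and lower at an unadjusted p under 0.05 in methylparaben, 783 and 562 in propylparaben and 420 and 878 in vehicle tumors.

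Most of the other milk proteins did not pass the test between the classes. Of 14 tested, 1 was higher and 0 lower, against 1.38% and 1.48% of all genes. Their median log2 difference was 0.11, against -0.00 over all genes. In this list 10 of 14 members were above 0, and 5 were higher and 1 lower at an unadjusted limma p under 0.05. The 1 that passed was Ltf, the iron-binding milk and granule protein lactotransferrin. It had 42.8, 153 and 300.2 in milk-protein-high tumors and 21.6, 89.9 and 128 in milk-protein-low tumors. Its log2 difference was 0.78 ± 0.22 (SE; adjusted p = 0.0454), it was above the low median in 13 of 15 high tumors, and it passed in 11 of 30 fits that left out 1 tumor, with an adjusted p of 0.0943 without methylparaben replicate 20. Lalba, the alpha-lactalbumin that makes lactose synthase, had 25.7, 177 and 428 in milk-protein-high tumors and 39.4, 214 and 291 in milk-protein-low tumors. Its classes overlapped almost wholly and its adjusted p was 0.896. The neighbors in the casein cluster did not pass, with Csn1s2a at -0.03 ± 0.37 (adjusted p = 0.971) and Csn1s2b at 0.44 ± 0.19 (adjusted p = 0.188). Nor did the abundant secreted proteins Wfdc18 (0.25), Spp1 (osteopontin, 0.77), Trf (transferrin, 0.07) and Mfge8 (lactadherin, 0.11), or butyrophilin, Btn1a1, at -0.67 with an adjusted p of 0.0835. Lists for milk lipid, lactose and secretion were also compared. The median was -0.03 over 9 genes of fat globule secretion, 0.00 over 21 of fatty acid and triglyceride synthesis, 0.07 over 10 of lactose synthesis and 0.07 over 34 of the secretory pathway, each with 0 members past the test. In the secretory pathway list 24 of 34 members were above 0, and 13 were higher and 0 lower at an unadjusted p under 0.05, against 1449 higher and 1530 lower of 14483 genes. Markers of alveolar and luminal progenitors had a median of 0.02 (0 of 12 passed), and their regulator Elf5 was at 0.06 ± 0.11 (adjusted p = 0.779).

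Of 12 genes of mineral and water transport into milk, 1 was higher and 1 lower, against 1.38% and 1.48% of all genes. Slc30a2, which loads zinc into milk vesicles, had 1.24, 4.50 and 26.2 in milk-protein-high tumors and 0, 1.29 and 1.97 in milk-protein-low tumors. The difference was 1.43 ± 0.30 (adjusted p = 0.0166), 14 of 15 high tumors lay above the low median, and the call was lost only without vehicle replicate 11 among the 30 tumors (adjusted p = 0.0577). The chloride cotransporter Slc12a2 was lower, at -0.73 ± 0.19 (adjusted p = 0.0314; 0.101 without vehicle replicate 11). The other 10 of 12 did not pass. Slc30a2 lay below the mean level of 5 that the ranking of largest differences further on required.

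Lifr and Lbp were the members of the list of involution and lysosome genes that passed, 1 lower and 1 higher of 21. Over all genes 1.48% were lower and 1.38% higher. Lifr, the receptor of leukemia inhibitory factor, had 36.8, 60.8 and 119 in milk-protein-high tumors and 71.2, 92.7 and 129 in milk-protein-low tumors, a difference of -0.67 ± 0.13 (adjusted p = 0.00724) that passed in 30 of 30 fits.

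Esr1, Prlr and Erbb4, 3 receptors of hormones and growth factors that act on the gland, were lower in milk-protein-high tumors. Esr1, estrogen receptor alpha, had 2.95, 11.3 and 34.7 in milk-protein-high tumors and 12.8, 22.5 and 44.5 in milk-protein-low tumors. All but 1 of the high tumors lay below the low median, although the ranges overlapped. The difference was -1.11 ± 0.23 (adjusted p = 0.0166). Prlr, the prolactin receptor, had 148, 253 and 315 in milk-protein-high tumors and 226, 419 and 707 in milk-protein-low tumors. Every high tumor was below the low median, and the difference was -0.76 ± 0.18 (adjusted p = 0.0244). Erbb4, a receptor of the EGF family that acts on Stat5a, had 0.935, 4.21 and 9.49 in milk-protein-high tumors and 6.16, 9.35 and 32.0 in milk-protein-low tumors. The difference was -1.07 ± 0.23 (adjusted p = 0.0166), with 13 of 15 high tumors below the low median. Pgr, the progesterone receptor, was below the low median in all 15 high tumors but its difference of -1.02 ± 0.44 did not pass (adjusted p = 0.179). Nor did the glucocorticoid receptor Nr3c1, at -0.19 (adjusted p = 0.152), or the insulin-like growth factor receptor Igf1r, at -0.15 (adjusted p = 0.681).

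The lists that hold these genes had medians below 0. Of 12 hormone-sensing markers 3 were lower and 0 higher, against 1.48% lower over all genes, with a median of -0.71. Besides Esr1 and Prlr this was Cited1, a coactivator of estrogen receptor, at -1.35 ± 0.32 (adjusted p = 0.0247). Foxa1, the pioneer factor of estrogen receptor, had a difference of -1.11 and an adjusted p of 0.0528. Of the 12 markers 2 were above 0, Prom1 (0.03) and Calca (0.16), and Areg (-0.01) and Greb1 (-0.06) lay near 0. Of 25 prolactin, STAT5 and alveolar regulators 4 were lower and 0 higher, against 1.48% lower over all genes, with a median of -0.17. These were Esr1 and Prlr, which both lists hold, Erbb4, and the insulin receptor substrate Irs1 at -0.44 ± 0.12 (adjusted p = 0.0439). The core of the prolactin and STAT5 pathway did not pass, with Jak2 at -0.13, Stat5a at -0.15 and Stat5b at -0.31 (adjusted p = 0.417, 0.673 and 0.0829). Nor did its feedback targets Cish (-0.17) and Socs2 (-0.05). Gata3, a luminal master regulator, was at -0.40 with an adjusted p of 0.0503. Without vehicle replicate 11 the adjusted p was 0.0577 for Esr1 and Erbb4, 0.0783 for Prlr, 0.0788 for Cited1 and 0.118 for Irs1. Without the 7 low-end libraries it was 0.0375 for Esr1, 0.038 for Erbb4, 0.0704 for Prlr and 0.0272 for Cited1. The median of the hormone-sensing list was -0.65 within methylparaben, -0.33 within propylparaben and -1.80 within vehicle tumors, and a test of a score effect that differs by treatment called 0 of 14483 genes (667 at an unadjusted p under 0.05). In these bulk samples, fewer cells of a type and less RNA per cell cannot be told apart.

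**Figure D2:**
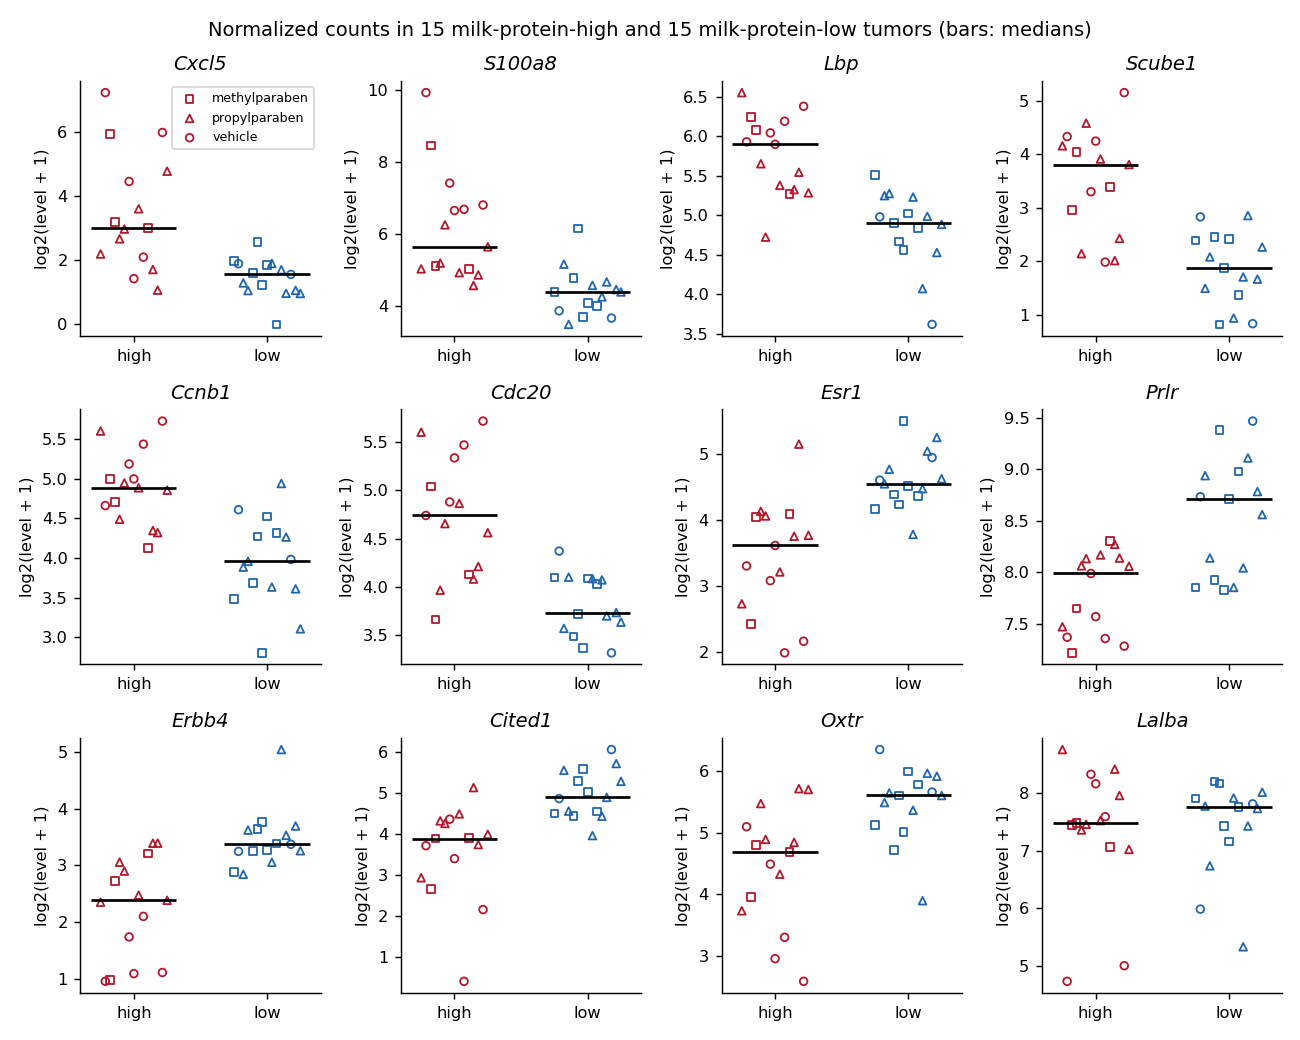
Levels of 12 genes as log2(normalized count + 1) in 15 milk-protein-high (red) and 15 milk-protein-low (blue) tumors; squares are methylparaben, triangles propylparaben and circles vehicle tumors, and bars are medians. Cxcl5, S100a8, Lbp, Scube1, Ccnb1 and Cdc20 sit higher and Esr1, Prlr, Erbb4, Cited1 and Oxtr lower in the high class with overlap in each, and the Lalba classes overlap almost wholly.

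Of 20 genes of mitosis tested, 9 were higher in milk-protein-high tumors and 0 lower, against 1.38% higher over all genes. All 20 had a difference above 0, with a median of 0.55, against 49.3% of all genes above 0. Ccnb1, the mitotic cyclin B1, had 16.5, 28.6 and 52.02 in milk-protein-high tumors and 5.98, 14.5 and 29.7 in milk-protein-low tumors. All 15 high tumors lay above the low median, and the difference was 0.84 ± 0.18 (adjusted p = 0.0169). Cdc20, the activator of the anaphase-promoting complex, had 11.7, 25.7 and 51.6 in milk-protein-high tumors and 8.96, 12.3 and 19.7 in milk-protein-low tumors. Here 14 of 15 lay above the low median, with a difference of 0.79 ± 0.17 (adjusted p = 0.0169). The kinase Aurka (0.63) and the ubiquitin-conjugating enzyme Ube2c (0.76) also passed, while Mki67, the proliferation antigen, did not (0.50, adjusted p = 0.0708). Without vehicle replicate 11 the adjusted p was 0.0577 for Ccnb1 and Cdc20, 0.0783 for Aurka and 0.0803 for Ube2c. Without the 7 low-end libraries, 3 of 20 were higher, against 53 of 14483 genes in that fit, and the median was 0.43. Those 7 had a mean log2 level of the mitosis genes of 5.61 to 6.33, against 3.93 to 5.77 in the others. The low end had been set as the end with higher levels of these mitosis genes. The libraries taken out were thus rich in mitosis RNA by that choice, so that fit is no independent check of these genes. Of 20 DNA replication genes 2 were higher, against 1.38% of all genes, and the median was 0.30. The 2 were the ribonucleotide reductase subunit Rrm2 (0.57 ± 0.14, adjusted p = 0.0287) and the helicase factor Gins1 (0.62 ± 0.17, adjusted p = 0.0414). Without vehicle replicate 11 their adjusted p was 0.0886 and 0.121. Hypoxia genes had a median of 0.21 with 0 of 20 past the test. In cholesterol synthesis 2 of 18 genes passed, both higher, against 1.38% higher over all genes. They were Mvd (0.48 ± 0.11, adjusted p = 0.0215) and Fdps (0.50 ± 0.12, adjusted p = 0.0265), with adjusted p of 0.0577 and 0.0737 without vehicle replicate 11.

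The 12 largest rises, among genes that passed with a mean level of at least 5 over the 30 tumors, were of Cxcl5, S100a8, Muc4, Scube1, Saa2, Slpi, Apln, Cxcl1, Rcor2, Saa3, Lbp and Atp6v1c2. Cxcl5, a chemokine that draws neutrophils, had 1.09, 7.0005 and 149 in milk-protein-high tumors and 0, 1.95 and 4.95 in milk-protein-low tumors. The high class was wide, with 13 of 15 above the low median, and the difference was 1.97 ± 0.46 (adjusted p = 0.0247). Cxcl1, a chemokine of the same receptor, rose by 1.17 ± 0.25 (adjusted p = 0.0177). S100a8, a calcium-binding protein of neutrophils and stressed epithelium, had 22.7, 49.03 and 975 in milk-protein-high tumors and 10.2, 19.9 and 70.1 in milk-protein-low tumors. All 15 high tumors were above the low median and the difference was 1.65 ± 0.38 (adjusted p = 0.0244). Lbp, which binds bacterial lipopolysaccharide, had 25.4, 58.6 and 92.6 in milk-protein-high tumors and 11.3, 28.9 and 44.5 in milk-protein-low tumors. Its difference of 0.95 ± 0.18 (adjusted p = 0.00724) passed in 30 of 30 fits that left out 1 tumor with the classes fixed. The acute-phase proteins Saa3 (1.11) and Saa2 (1.29) and the protease inhibitor Slpi (1.25) also rose, and Saa2 shares near-identical sequence with Saa1, so its level is uncertain. Without vehicle replicate 11 the adjusted p was 0.0712 for Cxcl5, 0.0577 for Cxcl1, 0.077 for S100a8, 0.0897 for Saa3, 0.123 for Saa2 and 0.0558 for Slpi.

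S100a8 is also on the list of neutrophil markers. Of these 10 markers 4 reached the level needed for the test and 1 was higher, S100a8 itself, against 1.38% higher over all genes. Their summed level was 29.6 to 1021 in milk-protein-high and 15.6 to 94.9 in milk-protein-low tumors. The defining markers Ly6g, Ngp, Camp and Elane were at 0 in 54, 53, 48 and 57 of 59 tumors. The part of neutrophils in the levels of Cxcl5, S100a8 and the other rises was not tested.

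Scube1, a secreted and cell-surface glycoprotein, had 2.95, 13.02 and 34.7 in milk-protein-high tumors and 0.762, 2.66 and 6.23 in milk-protein-low tumors. All 15 high tumors were above the low median, and the difference of 1.59 ± 0.31 (adjusted p = 0.00955) passed in 30 of 30 fits that left out 1 tumor. Apln, the peptide ligand apelin, had 11.7, 29.8 and 64.6 in milk-protein-high tumors and 3.98, 12.3 and 19.9 in milk-protein-low tumors. Its difference was 1.24 ± 0.23 (adjusted p = 0.00724), also past the test in 30 of 30. Muc4, a membrane mucin, rose by 1.65 ± 0.38 (adjusted p = 0.0244; 0.0603 without methylparaben replicate 20), Atp6v1c2, a proton pump subunit, by 0.91 ± 0.19 (adjusted p = 0.0166) and Rcor2, a transcriptional corepressor, by 1.12 ± 0.29 (adjusted p = 0.0346). Without vehicle replicate 11 the adjusted p of Atp6v1c2 and Rcor2 was 0.0577 and 0.0934. Reads of Muc4 and Atp6v1c2 may include reads of a gene on the other strand.

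The 12 largest falls, chosen in the same way, include Cited1 and Myh11, described apart. Dmbt1, a secreted scavenger receptor of epithelia, had 0, 6.48 and 65.0 in milk-protein-high tumors and 8.47, 35.2 and 143 in milk-protein-low tumors. Of the high tumors 13 of 15 lay below the low median, and the difference was -2.19 ± 0.52 (adjusted p = 0.0247). Retnla, a resistin-like protein of fat and alternatively activated macrophages, had 0.968, 15.7 and 159 in milk-protein-high tumors and 13.4, 85.2 and 135 in milk-protein-low tumors. Its difference was -1.79 ± 0.47 (adjusted p = 0.0352), with 14 of 15 below the low median. Reln, the matrix protein reelin, fell by 1.54 ± 0.35 on the log2 scale (adjusted p = 0.0244), Mmrn1, an endothelial and platelet protein, by 1.59 ± 0.38 (adjusted p = 0.0247) and Fmod, a collagen-binding proteoglycan, by 1.34 ± 0.32 (adjusted p = 0.0247). Crispld1, Abca8a, Ism1, Fam25c and Pgm5 fell by 1.33 to 1.55. Without vehicle replicate 11 the adjusted p was 0.0788 for Dmbt1, 0.0975 for Retnla, 0.0663 for Reln, 0.0712 for Mmrn1, 0.0786 for Fmod, and between 0.0614 and 0.106 for the 5 others.

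Basal cells contract around the alveolus to eject milk. Of 14 basal and myoepithelial markers 2 were lower and 0 higher, against 1.48% lower over all genes, with a median of -0.72. Without the 7 low-end libraries 0 passed, where 36 of 14483 genes were lower, and the median was -0.51. The 2 were Myh11, smooth muscle myosin (-1.34 ± 0.37, adjusted p = 0.0454), and Oxtr, the oxytocin receptor that triggers milk ejection, with 5.01, 24.7 and 51.5 in milk-protein-high tumors and 13.9, 47.6 and 80.4 in milk-protein-low tumors. The Oxtr difference was -0.97 ± 0.28 (adjusted p = 0.0487), with 13 of 15 high tumors below the low median, and it passed in 9 of 30 fits that left out 1 tumor (Myh11 in 12 of 30); without vehicle replicate 11 its adjusted p was 0.123, and that of Myh11 was 0.107 without vehicle replicate 9. The basal keratins Krt5 (-0.21) and Krt14 (0.49) did not pass.

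Lists for other cells and tissues that a tumor piece can hold differed in their medians, and apart from S100a8 among the neutrophil markers no member of those given here passed. White fat markers had a median of -1.06 and a summed level of 73.7 to 3509 (median 244) in milk-protein-high and 138 to 13422 (median 860.4) in milk-protein-low tumors. Skeletal muscle markers had a median of -1.14 and a summed level of 7.66 to 936 in milk-protein-high and 13.3 to 9247 in milk-protein-low tumors. The fibroblast median was -0.42 with 0 of 14 above 0, the endothelial median -0.25, the T cell median -0.35 and the interferon median -0.22. The macrophage median was -0.05 (0.04 without the 7 low-end libraries). The skin and keratinocyte median was 0.08 with 7 of 9 above 0, and the neutrophil median 0.92. Epithelial identity genes had a median of 0.01. Adipoq, the defining fat hormone, was detected in all 59 tumors. The part of these tissues in the results was not tested.

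**Figure D3:**
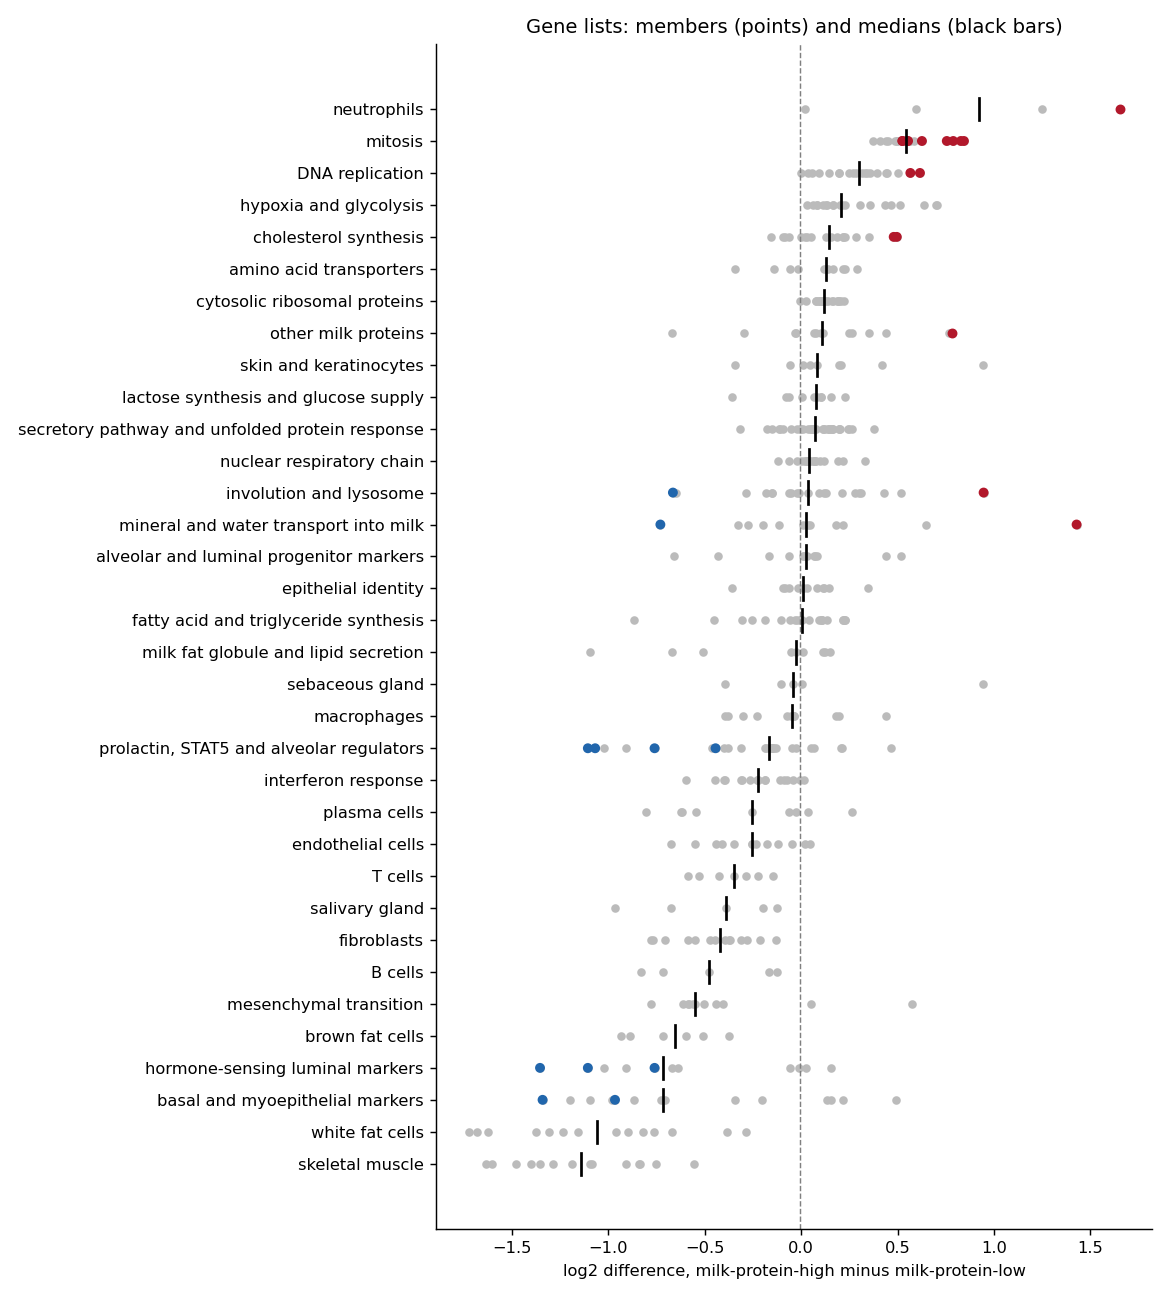
Log2 differences, milk-protein-high minus milk-protein-low, of the tested members of each gene list (points) with the list median (black bar); red and blue points passed the test upward and downward, and the dashed line is the median of all genes. Mitosis genes lie to the right, and most hormone-sensing and basal genes and all fat and muscle genes to the left.

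The 29 tumors between the classes allow the relation to be followed in samples that neither class holds. A slope on the score was fitted there, and 0 genes passed (263 with a slope above 0, 1.82%, and 233 below 0, 1.61%, at an unadjusted p under 0.05). Of the 200 genes higher in the high class, 178 had a slope above 0 in the middle tumors (89.0%), against 50.8% of all genes, and 22 had an unadjusted p under 0.05 (11%). Of the 215 lower genes, 187 had a slope below 0 (87.0%), against 49.2%, and 16 an unadjusted p under 0.05 (7.44%). Genes are not independent of each other, so these shares carry no p. Scube1 had a slope of 1.16 log2 units per unit of score (p = 0.0293), Cxcl1 of 1.16 (p = 0.0167), Lbp of 0.70 (p = 0.0163), Atp6v1c2 of 0.70 (p = 9.52e-04) and Cited1 of -1.43 (p = 0.0157), all unadjusted limma values. Esr1 had a slope of -0.30 (p = 0.435), Prlr of -0.19 (p = 0.513), and Erbb4, at 0.05 (p = 0.909), and Apln, at 0.04 (p = 0.938), were near 0. The mitosis median was 0.40 with 20 of 20 above 0, and the hormone-sensing median was -0.30 with 3 of 12 above 0. These 3 were Areg at 0.60, Greb1 at 0.69 and Calca at 0.20.

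**Figure D4:**
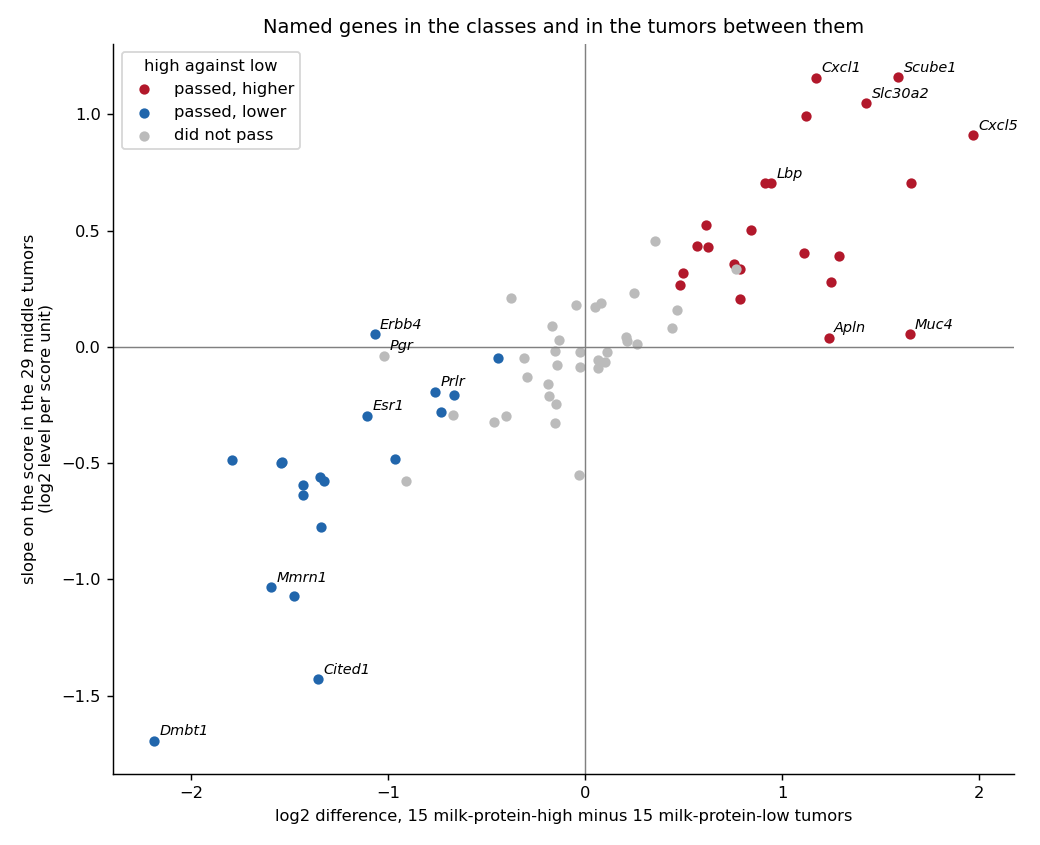
Slope of each named gene on the score in the 29 middle tumors (vertical, log2 units per unit of score) against its log2 difference, milk-protein-high minus milk-protein-low (horizontal); colors give the test between the classes. Most genes keep their side of 0, while Erbb4, Muc4 and Apln lie near 0 on the vertical axis.

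Intronic reads, deposited apart from gene reads, gave few differences between the classes. Of 14279 genes with introns tested outside the score 7 passed (0.049%). Higher were Bpifb5 at 2.21 ± 0.37, A630023A22Rik at 1.35 ± 0.24, Plppr3 at 0.91 ± 0.16 and Ska1, a spindle protein, at 1.60 ± 0.33. Lower were the kinase Lrrk1 at -0.51 ± 0.09, the sorting receptor Sorcs1 at -0.87 ± 0.16 and Lrrc75b at -0.88 ± 0.16. The gene-level difference of the 7 had the same sign, and that of Bpifb5 did not pass (adjusted p = 0.0889). These genes are named because they passed, after their values were seen. Csn1s1 introns held 1 to 1001 reads in milk-protein-high and 0 to 4 in milk-protein-low tumors, and Csn3 introns 158 to 1140 and 277 to 1203.

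Each score gene taken alone over all 59 tumors, with treatment as covariate, gave different counts. Slopes on Csn3 had the opposite sign for several lists. Most of these Csn3 calls were lost without the 7 low-end libraries. Of the 5 tumors with the lowest Csn3, 492 to 1094, 4 are among the 7 low-end libraries. All of the 7 but propylparaben replicate 1 are vehicle tumors, so leaving them out also changes the balance of treatments. The fits on single score genes were added after the data were seen and share the same tumors. They are therefore set side by side with no test between them. With Csn1s1, 689 genes rose (4.76%) and 666 fell (4.60%); with Csn2, 472 rose (3.26%) and 655 fell (4.52%). With Wap, 11 rose (0.076%) and 10 fell (0.069%), and 831 and 771 had an unadjusted p under 0.05. With Csn3, 582 rose (4.02%) and 412 fell (2.84%). Of 20 mitosis genes, 19 rose with Csn1s1, 13 with Csn2 and 0 with Wap, while 3 fell with Csn3. Of 12 hormone-sensing genes, 6 fell with Csn1s1, 7 with Csn2 and 0 with Wap, while 3 rose with Csn3. Of 25 prolactin, STAT5 and alveolar regulators, 7 fell and 3 rose with Csn1s1 and 8 fell with Csn2, while 8 rose with Csn3.

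For single genes, the slope of Prlr, in log2 units per log2 unit of the score gene, was -0.17 on Csn1s1 (adjusted p = 0.00181), -0.21 on Csn2 (adjusted p = 0.00511), -0.08 on Wap (adjusted p = 0.677) and 0.43 on Csn3 (adjusted p = 0.0293). Erbb4 had slopes of -0.25, -0.30, -0.10 and 0.60 in the same order, and that on Csn3 had an adjusted p of 0.0461. Pgr had a slope of -0.42 on Csn2 (adjusted p = 0.00497) and 0.98 on Csn3 (adjusted p = 0.0112). Cxcl5 had 0.55 on Csn1s1 (adjusted p = 7.59e-05) and -1.51 on Csn3 (adjusted p = 0.0024). Lalba, the lactose synthase subunit, had slopes near 0 on Csn1s1 (-0.12), Csn2 (0.02) and Wap (0.01) and one of 1.498 on Csn3 (adjusted p = 5.83e-09). Elf5 and Csn1s2a also rose with Csn3, at 0.24 (adjusted p = 0.0156) and 0.77 (adjusted p = 0.0287). Of 14 other milk proteins, 5 rose with Csn3, 1 rose and 1 fell with Csn1s1, and none passed with Csn2 or Wap. Without the 7 low-end libraries, 149 genes rose and 53 fell with Csn3, and 339 and 324 with Csn1s1. The counts were 39 and 80 with Csn2 and 44 and 30 with Wap. The Csn3 calls above then were mostly lost. Of the mitosis, hormone-sensing and prolactin lists 0 members passed with Csn3, and the median slopes were -0.01, 0.22 and 0.04. The slope on Csn3 was 0.35 for Prlr (adjusted p = 0.496), 0.14 for Erbb4 (adjusted p = 0.898), 0.61 for Pgr (adjusted p = 0.451), -1.28 for Cxcl5 (adjusted p = 0.281), 0.25 for Elf5 (adjusted p = 0.297) and 0.42 for Csn1s2a (adjusted p = 0.677). That of Lalba was 1.88 (adjusted p = 8.63e-06), and 2 of 14 other milk proteins rose. With Csn1s1, 8 of 20 mitosis genes rose and 6 of 12 hormone-sensing genes fell without the 7 libraries, and Prlr kept a slope of -0.16 (adjusted p = 0.00322); with Csn2 the counts were 0 and 1.

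**Figure D5:**
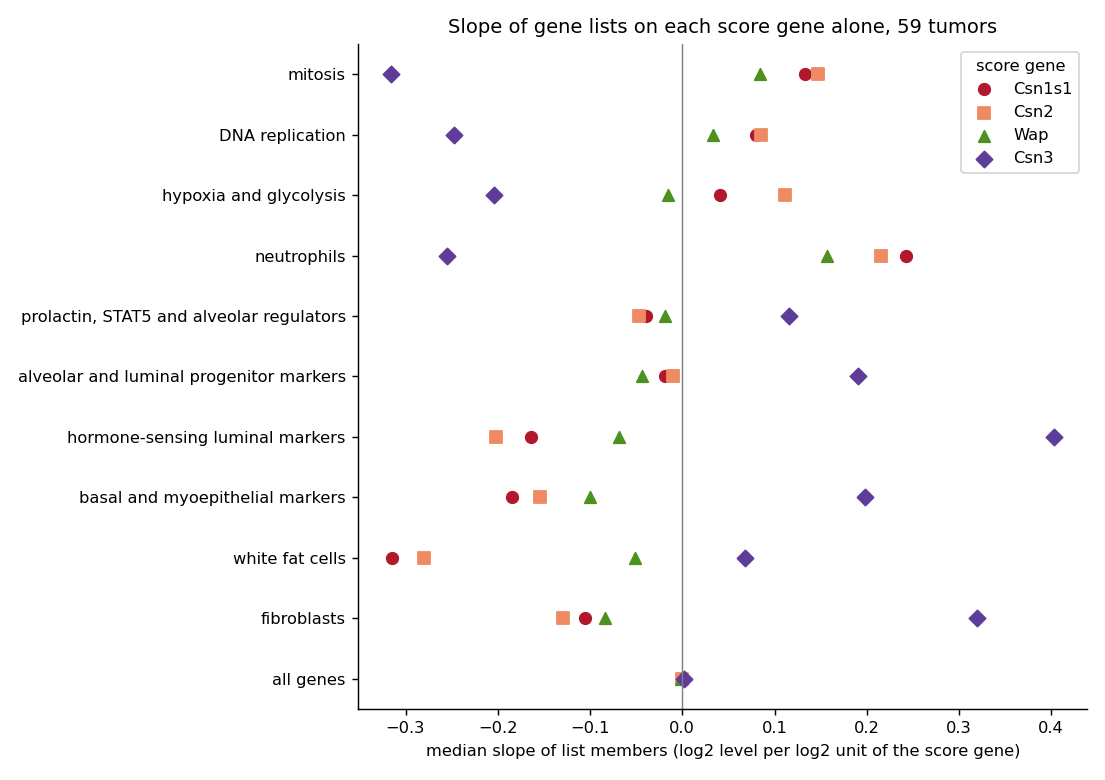
Median slope of the members of 10 gene lists and of all genes on each score gene alone over 59 tumors, in log2 units per log2 unit of the score gene; each symbol is a score gene. Mitosis and neutrophil lists lie right of 0 and hormone-sensing, basal and fibroblast lists left of 0 for Csn1s1, Csn2 and Wap. The Csn3 symbols lie on the other side. Without the 7 low-end libraries the Csn3 median for mitosis was -0.01 and for hormone-sensing genes 0.22.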

How the data were processed

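RNA-seq of 59 mammary tumors gave the deposited tables. The submitters' processing notes name bcl2fastq 2.20.0.422, STAR 2.6.1d, HTSeq 0.10.0 and the build GRCm38. Annotation, strand setting, intron definition and the tool for normalization were not stated in the labels. The deposited values are a signal, reads per gene (55421 genes and 5 HTSeq summary lines, left out of sums and tests) or per gene's introns (33282) that the authors scaled to a common library size, called normalized counts per the file headers and names. In the gene table every value was a whole number of reads (100% within 1e-06), so reads were recovered; each table was normalized separately. Reads outside features were 13.7 to 35.5%.

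Genes with a mean of at least 1 over the tumors were analysed as log2(value + 1), pseudocount 1, with limma 3.58.1 (trend) in R 4.3.3, class and treatment as terms, over 30 tumors; adjusted p is Benjamini-Hochberg over all tested genes, the 4 score genes being left out of counts. Fold changes on this scale understate the change of low genes. The middle tumors were fitted with the score as a slope, and the single score genes likewise over 59. Single values per tumor used two-sided permutation tests (100000 resamples). The procedure was also run on simulated counts with known changes. Those genes were drawn independently and the classes were not chosen by them, so the run does not bear on the stability of these calls. Alternatives used edgeR 4.0.16 and DESeq2 1.42.0 on recovered reads, other scalings, filters, pseudocounts, class sizes, scores and tumors left out. GENCODE M21 matched 55154 identifiers. Tables were handled with Python 3.11.15.

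Members and gene lists were chosen with earlier results of these data known. Named genes were the score genes and all tested milk proteins and prolactin, STAT5 and alveolar regulators. They were also the 12 largest changes each way among those that passed with a mean of at least 5, and up to 4 passing members of each other list. In all there were 79, not all printed, and 20 of the 79 overlap a gene on the other strand. Tumors are numbered within a group in record order. Intervals and floors cover counting error only.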

Additional observations from a re-analysis of the deposited data

How the results depend on the processing

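The counts of genes higher and lower in milk-protein-high tumors, 200 and 215, depended on the fit. They were 75 and 58 with no filter on low values, 406 and 440 with DESeq2, 582 and 624 with no treatment covariate, 87 and 74 with 10 tumors at each end, 394 and 391 with 20 tumors at each end, 630 and 689 with the score as a continuous variable over 59 tumors, and 524 and 592 with array weights. A score without Csn2 gave 6 and 2, without Csn3 42 and 29, without Csn1s1 3 and 3, and without Wap 848 and 855. Within vehicle, methylparaben or propylparaben tumors alone they were 0 and 0. Leaving out each of the 30 tumors in turn gave 13 to 466 higher and 9 to 602 lower. Without 7 libraries at the low end of principal component 1, a choice made after seeing the data, they were 53 and 36, and for the single score genes 39 and 80 (Csn2), 149 and 53 (Csn3), 339 and 324 (Csn1s1) and 44 and 30 (Wap). TMM scaling without the score genes gave 172 and 248, median-of-ratios scaling 172 and 233, and edgeR 245 and 257. With a pseudocount of 10, 2 introns were higher, and with no treatment covariate 29 were higher and 59 lower. In the middle tumors 0 genes passed under every alternative run. The 3 comparisons of the score by treatment did not pass under another pseudocount or without any of the 4 genes. The cause of these movements was not tested.

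Between the classes, no named gene that passed in the main fit or in an alternative changed sign from one to the other. Signs of genes that passed in neither were not counted. In the middle tumors 0 genes passed, so this check could find no change there. The fits on single score genes were not part of it. In those fits the slopes of Prlr, Erbb4 and Cxcl5 on Csn3 had the sign opposite to their difference between the classes. No paired analysis was possible because nothing ties a tumor to any tumor of another group. Csn2, with 0 reads in 19 of 59 tumors, limits the precision of the score at its low end.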
